A study of Mus musculus with 12 samples.

Results

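The expression of 9 genes that start, brake or undo blood clotting was followed in the glomeruli of diabetic mice treated with arctigenin (ATG), a plant lignan. The 9 genes were chosen by name and found by their symbol, and they make up 9 of the 14096 genes listed. They are Thbd, Procr, Tfpi, F3, Vwf, Plat, Plau, Plaur and F2r. The mice were 12 males on the C57BL/6J background, 3 in each of 4 groups, and all of them lacked eNOS (eNOS-/-), the nitric oxide synthase of endothelium. At 8 weeks of age, 6 mice received STZ, a toxin of the insulin-producing cells, at 50 mg/kg daily for 5 days, while the other 6 received citrate buffer. Of each 6, 3 were gavaged daily with ATG at 40 mg/kg and 3 with vehicle (5% DMSO), from 10 weeks after induction and for 8 weeks. All groups therefore share the eNOS deficiency, and no group with intact eNOS is included.

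Each mouse contributed 1 library of polyadenylated RNA from isolated glomeruli, with between 23.6 and 29.8 M (mega) reads on the listed genes. The labels also describe a digestion to single cells and a sort for a fluorescent protein, which the methods of the study do not mention, and the material is taken here as whole glomeruli. All 15 podocyte markers and all 20 endothelial markers looked up were listed. So were all 39 tubule markers, so that being listed does not tell the material apart. Reads on Nos3, the gene disrupted in these mice, were counted in every library (846 to 2703), and a total per gene does not tell which exons they came from. The first part of the sample label differs between groups, so that group and any preparation batch marked by it cannot be told apart. Mouse 1 of either nondiabetic group carries a separate label part without a number after it. P-values measure the spread between animals within groups, pooled over the 4 groups of 3 and drawn towards that of other genes.

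In vessels, clotting starts when tissue factor (F3) meets circulating factor VII and ends with thrombin, which cuts fibrinogen to fibrin. Endothelial cells hold this in check with tissue factor pathway inhibitor (Tfpi) and with thrombomodulin (Thbd) and the endothelial protein C receptor (Procr), which together turn thrombin into an activator of the anticoagulant protein C. Plasminogen activators of the tissue type (Plat) and the urokinase type (Plau) dissolve fibrin, the latter bound to its receptor (Plaur). Thrombin also signals to cells through the protease-activated receptor PAR1 (F2r). Von Willebrand factor (Vwf) tethers platelets to the vessel wall. The glomerulus is a tuft of fenestrated capillaries, and loss of thrombomodulin and deposition of fibrin are known from injury of these capillaries.

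F2r, Plaur and Tfpi were the members that passed the test in diabetic mice whether or not they received ATG, and their promoters are shown for that reason. Each line gives the 250 bases before the transcription start in RefSeq (GRCm38.p6), read 5′ to 3′ on the strand of the gene. Capitals mark matches, on either strand, to the letters TGANTCA (the AP-1 element), CACCC (a core bound by KLF factors) or CCGCCC (the GC box).
F2r promoter, chr13:95618467-95618716, minus strand: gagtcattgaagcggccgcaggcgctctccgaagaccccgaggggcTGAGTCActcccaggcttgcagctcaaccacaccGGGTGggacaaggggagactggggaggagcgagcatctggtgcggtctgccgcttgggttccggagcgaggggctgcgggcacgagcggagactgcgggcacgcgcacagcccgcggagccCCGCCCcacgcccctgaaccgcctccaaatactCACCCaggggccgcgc
Plaur promoter, chr7:24462233-24462482, plus strand: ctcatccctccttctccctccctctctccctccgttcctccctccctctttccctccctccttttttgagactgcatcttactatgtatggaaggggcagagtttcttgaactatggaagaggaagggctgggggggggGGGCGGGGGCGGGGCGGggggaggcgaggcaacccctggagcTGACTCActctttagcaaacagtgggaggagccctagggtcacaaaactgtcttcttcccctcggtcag
Tfpi promoter, chr2:84476760-84477009, minus strand: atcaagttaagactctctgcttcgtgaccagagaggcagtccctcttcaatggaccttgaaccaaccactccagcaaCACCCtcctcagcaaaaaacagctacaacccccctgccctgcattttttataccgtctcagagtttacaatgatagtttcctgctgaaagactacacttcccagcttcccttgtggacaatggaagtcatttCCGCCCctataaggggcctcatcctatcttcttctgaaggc

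The AP-1 letters occurred once in the F2r and once in the Plaur window and not in that of Tfpi. Over the 32851 promoter windows of this length in the table, 6.75% held them, 52.0% held CACCC and 32.7% held CCGCCC. The F2r window held 2 matches to CACCC and 1 to CCGCCC, the Plaur window 3 to CCGCCC and the Tfpi window 1 to each. Overlapping matches run together in the capitals, as in the GC-rich stretch of Plaur. Of the other members, Procr and F3 had a promoter in the table, with 1 and 2 AP-1 matches, respectively. The motifs were picked after the values had been seen. A match describes letters and is not a binding site.

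The members differed widely in level. Compared per length, as reads per kilobase of transcript and per M of listed reads, Plat led with a mean of 1426 over the 12 mice, which placed it at rank 18 of all listed genes. F2r followed with 152, Thbd with 82.3 and Plau with 61.7. Plaur had 29.1, F3 19.7, Tfpi 11.7 and Procr 5.38. Vwf was lowest at 1.11, at rank 13356 and on 231 to 321 reads per mouse. The order held in all 12 mice for Plat over F2r, F2r over Thbd, F3 over Tfpi, Tfpi over Procr and Procr over Vwf. It did not hold in every mouse between the other neighbours: Thbd exceeded Plau in 10 of 12, Plau exceeded Plaur in 11 of 12 and Plaur exceeded F3 in 9 of 12. From here on, levels are the deposited log2 values, which are not divided by length and are compared only between mice.

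**Figure D1:**
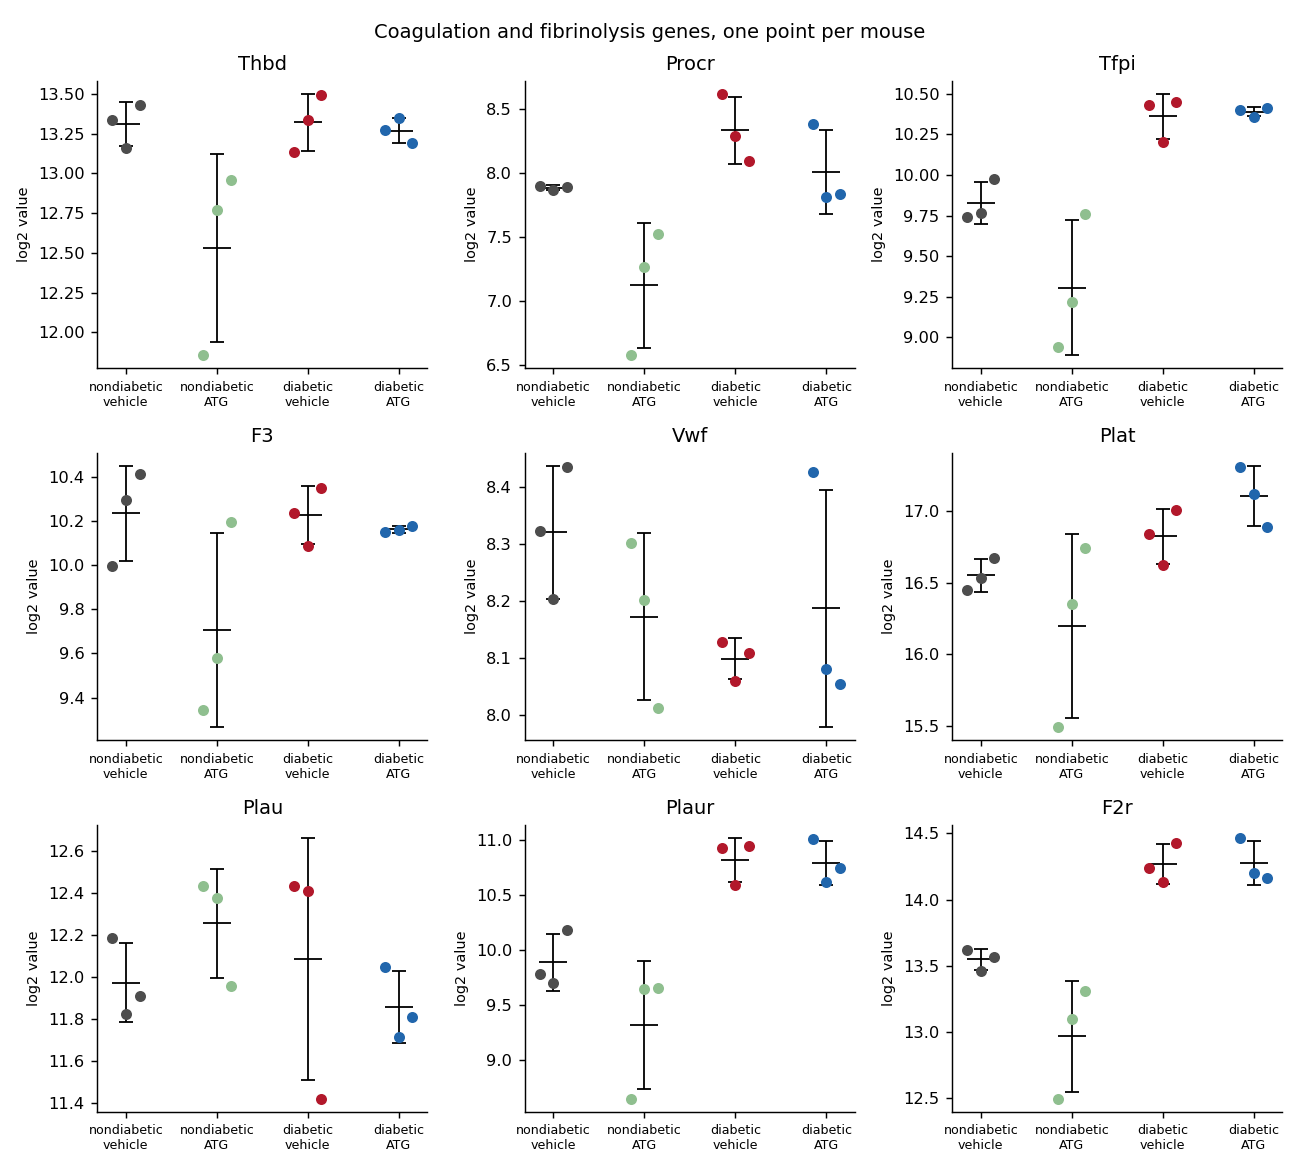
Log2 value of each of the 9 genes (vertical axis, scaled separately per gene) in the 4 groups (horizontal axis); a point is 1 mouse, the bar is the mean and the whiskers are 1 SD of 3 mice. For F2r, the diabetic mice lie between 14.13 and 14.47 and the nondiabetic mice between 12.49 and 13.62.

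The first question was what diabetes did to these genes with vehicle alone. F2r, Plaur and Tfpi rose and none of the 9 fell at an adjusted p under 0.05 (limma over all 14096 genes). That is 3 of 9, where 18.9% of all listed genes passed in either direction, 10.2% as higher and 8.63% as lower. The median log2 fold change of the 9 was 0.27, against 0.01 over all genes. The 3 diabetic mice lay above the 3 nondiabetic mice without overlap for 4 of the 9, where 23% of all genes did so.

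F2r, on chromosome 13 from 95601789 to 95618433 in mm10, encodes the receptor through which thrombin activates cells. With vehicle, its log2 value was 13.62, 13.46 and 13.56 in the nondiabetic mice and 14.24, 14.13 and 14.43 in the diabetic mice. With ATG it was 12.49, 13.09 and 13.31 in the nondiabetic mice and 14.47, 14.20 and 14.16 in the diabetic mice. All 6 diabetic mice lay above all 6 nondiabetic mice, and the 2 diabetic groups overlapped. How many of all genes were apart in this way was not counted, here or for the genes below. The log2 fold change with diabetes was 0.72 (standard error 0.18, adjusted p = 0.0207 in limma) in vehicle-treated mice, a 1.65-fold difference with a 95% interval from 1.26 to 2.17.

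Plaur, on chromosome 7 from 24462483 to 24475968, encodes the urokinase receptor, which podocytes and leukocytes can also carry. With vehicle, its log2 value was 9.78, 9.70 and 10.18 in the nondiabetic mice and 10.92, 10.59 and 10.95 in the diabetic mice. With ATG it was 8.65, 9.64 and 9.66 in the nondiabetic mice and 11.01, 10.62 and 10.75 in the diabetic mice. Again every diabetic mouse exceeded every nondiabetic one, and ATG-treated nondiabetic mouse 1 stood lowest. The vehicle-treated groups differed by 0.93 on the log2 scale (standard error 0.25, adjusted p = 0.0262 in limma), or 1.91-fold (95% interval 1.31 to 2.78).

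Tfpi, the inhibitor of tissue factor and factor VII on chromosome 2 from 84440723 to 84476759, had vehicle values of 9.74, 9.76 and 9.98 without and 10.43, 10.20 and 10.45 with diabetes. With ATG, the nondiabetic mice had 8.94, 9.22 and 9.76 and the diabetic mice 10.40, 10.36 and 10.41. The diabetic mice were the higher ones under both treatments, and the ATG-treated diabetic mice lay close together. Its log2 fold change with vehicle was 0.53 (standard error 0.17, adjusted p = 0.0470 in limma).

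These 3 calls rest on few mice. Without any 1 of nondiabetic mice 1 and 2 and diabetic mice 1 and 3 of the vehicle groups, none of the 9 passed, although the fold changes stayed between 0.64 and 0.79 for F2r, 0.84 and 1.08 for Plaur and 0.49 and 0.61 for Tfpi over all mice left out in turn. With these single mice left out, 801 to 2145 of all genes passed for diabetes with vehicle, against 2659 with all mice. Without vehicle-treated nondiabetic mouse 3, Plaur alone passed, and Tfpi also lost its call without ATG-treated nondiabetic mouse 2 or any 1 ATG-treated diabetic mouse (adjusted p from 0.0610 to 0.0657 in limma). The 2 nondiabetic mice without a number left out together, F2r and Plaur passed, as did 1836 of all genes.

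The remaining members did not pass with vehicle. Procr, the protein C receptor on chromosome 2 from 155751217 to 155755478, had 7.89, 7.86 and 7.89 in nondiabetic and 8.61, 8.28 and 8.09 in diabetic mice. The groups did not overlap, and the log2 fold change of 0.45 had an interval that included 0 (95% interval -0.07 to 0.97, adjusted p = 0.201 in limma). Thbd, which turns thrombin towards protein C, lies on the same chromosome from 148404471 to 148408188. It had 13.34, 13.16 and 13.43 in nondiabetic and 13.14, 13.34 and 13.49 in diabetic mice, a difference of 0.01 (95% interval -0.49 to 0.51). As a fold, the interval of Thbd runs from 0.713 to 1.43.

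Plat, on chromosome 8 from 22757722 to 22782848, encodes tissue-type plasminogen activator and differed by 0.27 (95% interval -0.34 to 0.89). Plau, on chromosome 14 from 20836662 to 20843388, had 12.43, 12.41 and 11.42 in the diabetic mice, where mouse 3 stood apart, and 12.18, 11.83 and 11.91 in the nondiabetic mice. Its difference was 0.11 (95% interval -0.42 to 0.65). F3, on chromosome 3 from 121723537 to 121735052, differed by -0.01 (95% interval -0.41 to 0.39). Vwf, on chromosome 6 from 125552948 to 125686679, had 8.32, 8.20 and 8.44 in nondiabetic and 8.13, 8.06 and 8.11 in diabetic mice. Its log2 fold change of -0.22 did not pass (adjusted p = 0.212 in limma), though the 2 groups did not overlap.

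**Figure D2:**
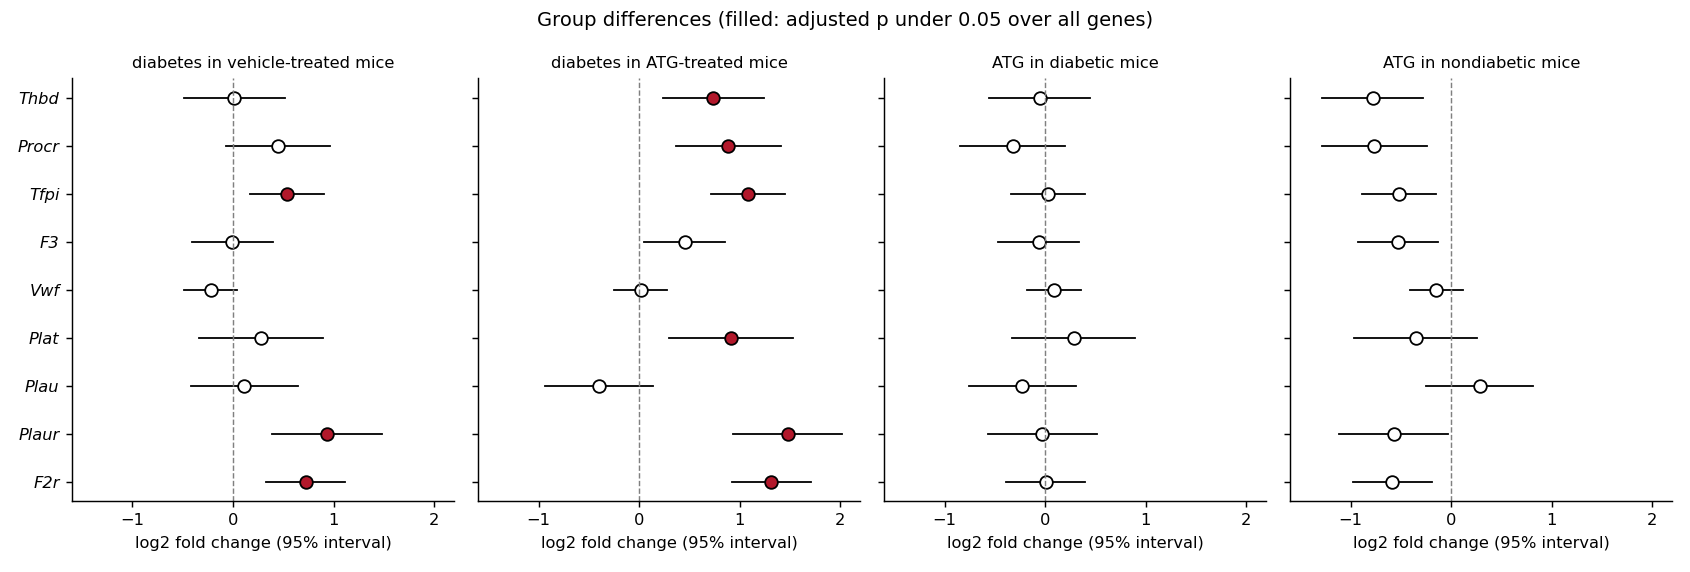
Log2 fold change (horizontal axis) with its 95% interval for each of the 9 genes in 4 comparisons of groups; filled points have an adjusted p under 0.05 over all listed genes. Filled points number 3 for diabetes with vehicle, 6 for diabetes with ATG and 0 for ATG in diabetic and in nondiabetic mice.

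The same question in ATG-treated mice rests on 6 other animals. Here Thbd, Procr, Tfpi, Plat, Plaur and F2r were higher in diabetic than in nondiabetic mice, 6 of 9, and none was lower. Over all listed genes, 46.7% passed in this comparison, 25.9% as higher and 20.8% as lower. The groups were apart, with diabetic mice higher, for the same 6 members and for 30.5% of all genes. The median log2 fold change was 0.89 for the 9 and 0.05 for all genes.

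Among the anticoagulants of endothelium, all 3 passed. Thbd had 11.86, 12.77 and 12.96 in ATG-treated nondiabetic mice and 13.27, 13.35 and 13.19 in ATG-treated diabetic mice. The diabetic mice were at the level of the vehicle-treated groups, and the nondiabetic mice were below it. The log2 fold change was 0.74 (standard error 0.23, adjusted p = 0.0216 in limma). Procr had 6.58, 7.26 and 7.52 against 8.38, 7.81 and 7.83, and rose by 0.89 (standard error 0.24, adjusted p = 0.0111 in limma) on 75 to 309 reads. Tfpi differed by 1.08 (standard error 0.17, adjusted p = 0.000765 in limma).

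Of the fibrinolytic members, Plat had 15.49, 16.35 and 16.74 in nondiabetic and 17.31, 17.12 and 16.89 in diabetic mice, so that the groups did not overlap. The log2 fold change of Plat was 0.91 (standard error 0.28, adjusted p = 0.0211 in limma). Plaur differed by 1.48 (standard error 0.25, adjusted p = 0.00115 in limma), the largest difference of the 9 in this comparison. Plau, whose product Plaur binds, had 12.43, 12.38 and 11.96 in nondiabetic and 12.05, 11.72 and 11.81 in diabetic mice. Those overlapped, and its log2 fold change of -0.40 had an interval from -0.93 to 0.13. The thrombin receptor F2r differed by 1.31 (standard error 0.18, adjusted p = 0.000434 in limma), a 2.48-fold difference.

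F3 had 9.34, 9.58 and 10.19 in nondiabetic and 10.15, 10.16 and 10.18 in diabetic mice. Its difference of 0.46 missed the threshold (adjusted p = 0.0609 in limma) and passed without ATG-treated nondiabetic mouse 3, at 0.70 (adjusted p = 0.00136). Without mouse 1 of the same group it was 0.27 (adjusted p = 0.234 in limma). Vwf differed by 0.01 (95% interval -0.25 to 0.28). F2r, Plaur, Tfpi and Procr passed with each mouse left out in turn. Thbd lost its call without ATG-treated diabetic mouse 1 or 2, at 0.74 and 0.70 (adjusted p = 0.0528 and 0.0635 in limma), and Plat without either of these or ATG-treated nondiabetic mouse 1 (adjusted p up to 0.0716). Without ATG-treated nondiabetic mouse 1, the log2 fold change was 0.40 for Thbd, which passed (adjusted p = 0.0258 in limma), and 0.56 for Plat. Without both mice that lack a number, 4 of the 9 passed, and Procr and Plat missed the threshold at 0.61 and 0.56 (adjusted p = 0.0509 and 0.0696 in limma). Of all genes, 4314 passed in that fit, against 6585 with all mice. Without vehicle-treated diabetic mouse 3, which enters only the estimate of the spread, Plau passed as lower at an unaltered -0.40 (adjusted p = 0.0361).

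Whether the difference with diabetes depended on ATG is the same question as whether the effect of ATG depended on diabetes, and 1 test answers both. None of the 9 passed it, where 0.546% of all genes did. At an unadjusted p under 0.05 there were 3, namely F2r, Tfpi and Thbd, beside 12.9% of all genes. For Thbd the difference between the effects was 0.73 (95% interval 0.02 to 1.44, adjusted p = 0.376 in limma). Without ATG-treated nondiabetic mouse 3, F3 and Tfpi passed with differences of 0.71 and 0.78 (adjusted p = 0.0417 and 0.0214 in limma). In that fit 770 of all genes passed, against 77 with all mice. Without mouse 1 of the same group none of the 9 passed, and the difference was 0.39 for Thbd, 0.36 for F2r and 0.28 for F3, against 0.73, 0.59 and 0.47 with all mice. The larger number of calls with ATG is therefore not shown to be a difference between the treatments.

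In diabetic mice, ATG was compared with vehicle to ask whether treatment moved these genes once diabetes was established. None of the 9 passed, as 0% of all genes did in limma. At an unadjusted p under 0.05 there were also none of the 9, where 4.51% of all genes fell under it. The 2 diabetic groups overlapped for every member, whereas 10.2% of all genes were apart in one or the other direction. limma-voom on recovered reads also called none of the 9.

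The intervals show how large an effect these 6 mice could have concealed. For F2r the log2 fold change with ATG was 0.01 (95% interval -0.39 to 0.40), for Tfpi 0.03 (95% interval -0.34 to 0.40) and for Thbd -0.05 (95% interval -0.55 to 0.45). Plaur had -0.03 (95% interval -0.57 to 0.52) and F3 -0.06 (95% interval -0.47 to 0.34). The estimates were larger for Procr, at -0.32 (95% interval -0.84 to 0.20), Plat, at 0.28 (95% interval -0.33 to 0.90), and Plau, at -0.23 (95% interval -0.76 to 0.30). Single mice moved these 3. Without vehicle-treated diabetic mouse 1 or ATG-treated diabetic mouse 1, Procr had -0.18 or -0.51. Plat ranged from 0.18 to 0.39 with each mouse left out, lowest without vehicle-treated diabetic mouse 2 or ATG-treated diabetic mouse 1. Plau ranged from -0.56 without vehicle-treated diabetic mouse 3 to -0.06 without mouse 1 of that group, and was also near the upper end without mouse 2. The interval of F2r leaves out a fall of the size of its rise with diabetes in vehicle-treated mice, 0.72, and that of Plaur leaves out 0.93 in the same way. For Tfpi, a fall of 0.53 is outside the interval as well. The rises have 95% intervals of their own, from 0.33 to 1.11 for F2r, 0.39 to 1.48 for Plaur and 0.17 to 0.90 for Tfpi. Falls of the size of these lower ends lie inside the intervals with ATG. Both comparisons also share the vehicle-treated diabetic mice, so that no conclusion on a reversal is drawn.

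In nondiabetic mice, 8 of the 9 had lower means with ATG than with vehicle, as did 7918 of all 14096 genes. None of the 9 passed, where 5.22% of all genes did in either direction. At an unadjusted p under 0.05, 6 of the 9 were lower (Thbd, Procr, Tfpi, F3, Plaur and F2r), where 19.5% of all genes were. Without overlap of the groups, 4 of the 9 were lower, where 20% of all genes were. The estimates were -0.78 for Thbd (standard error 0.23, adjusted p = 0.0683 in limma), -0.76 for Procr (standard error 0.24, adjusted p = 0.0758) and -0.58 for F2r (standard error 0.18, adjusted p = 0.0741). Plau had 0.28 (95% interval -0.25 to 0.82). The adjusted p of the 9 ranged from 0.0683 to 0.427 in limma. Here and in the test of the difference between the effects, limma-voom on recovered reads also called none of the 9.

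ATG-treated nondiabetic mouse 1 had the lowest value of all 12 mice for 7 of the 9 genes. This is 1 of the 2 mice without a number. Between these 2 mice alone, ATG minus vehicle was -1.48 for Thbd, -1.32 for Procr, -1.13 for Plaur, -1.13 for F2r and -0.96 for Plat. Between the numbered mice, 2 in each group, it was -0.43, -0.49, -0.29, -0.31 and -0.05 in the same order. For these genes the direction was thus the same in the unnumbered and the numbered mice, and the size was smaller in the numbered mice. It was not smaller there for Vwf, at -0.02 unnumbered and -0.21 numbered, or for Plau, at 0.25 and 0.30. Without ATG-treated nondiabetic mouse 1 alone, the estimate was -0.44 for Thbd, -0.49 for Procr, -0.35 for F2r and -0.24 for Plaur (adjusted p from 0.107 to 0.454 in limma). Leaving out ATG-treated nondiabetic mouse 3, the highest of its group for these genes, had the opposite result. Then 5 members passed as lower, namely Thbd at -0.99, Procr at -0.96, F3 at -0.77, F2r at -0.76 and Tfpi at -0.75 (adjusted p from 0.00280 to 0.0178 in limma). In that fit, 2467 of all 14096 genes passed as lower, against 636 with all mice.

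Of the cell types in a glomerular preparation, endothelial markers moved along with these differences. Markers of other types did so in part or not at all, as given below. The mean log2 value of 20 endothelial markers, none of which is one of the 9 genes, was 12.84 to 12.99 in vehicle-treated nondiabetic and 13.20 to 13.39 in vehicle-treated diabetic mice. In ATG-treated mice it was 11.90 to 12.66 without diabetes and 13.29 to 13.37 with it. Of the 20, 10 were higher and 0 lower with diabetes under vehicle (median log2 fold change 0.46), and 19 were higher under ATG (median 1.12). With ATG in nondiabetic mice, 9 were lower (median -0.67), and in diabetic mice 0 of 20 passed (median 0.02).

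The markers of tubules, which surround glomeruli and remain in part after isolation, went the opposite way. Of 39 listed, 27 were lower with diabetes under vehicle and 37 under ATG. Their mean log2 value ranged from 12.23 to 12.75 in vehicle-treated nondiabetic, 12.95 to 13.53 in ATG-treated nondiabetic, 10.29 to 11.68 in vehicle-treated diabetic and 11.07 to 11.67 in ATG-treated diabetic mice. None of the 15 podocyte markers passed for diabetes with vehicle, and 4 were higher with ATG. Of 8 mesangial markers, 0 passed for diabetes with vehicle (median log2 fold change -0.19). With diabetes under ATG, 7 were higher, and with ATG in nondiabetic mice 6 were lower. Of 16 leukocyte markers, 6 were higher with diabetes under vehicle and 7 under ATG. Of 5 smooth muscle markers, 1 was lower with diabetes under vehicle and 3 were higher under ATG, and of 5 erythrocyte markers 3 and 1 were higher, respectively. Platelets were represented by 1 of 11 markers, Itga2b, which was higher with diabetes under both treatments. In whole glomeruli, fewer cells of a type and less RNA per cell cannot be told apart.

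**Figure D3:**
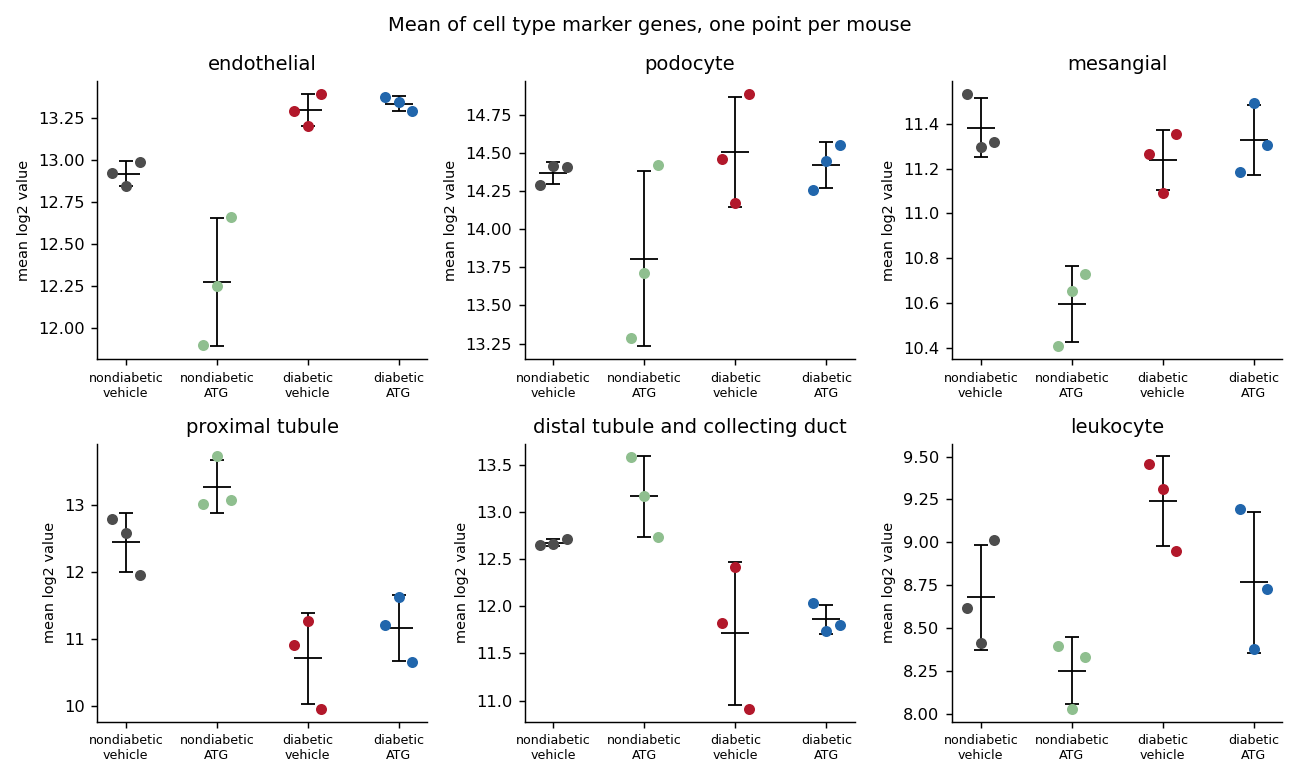
Mean log2 value of 6 lists of marker genes (vertical axis) in the 4 groups (horizontal axis); a point is 1 mouse, the bar is the mean and the whiskers are 1 SD. The endothelial mean is lowest in ATG-treated nondiabetic mice, from 11.90 to 12.66, and the proximal tubule mean is highest there, from 13.02 to 13.73.

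Once the endothelial marker mean entered as a covariate, no member passed in any comparison, and of all genes 635 passed for diabetes with vehicle and 0 with ATG. F2r then had 0.31 and Plaur 0.40 for diabetes with vehicle (adjusted p = 0.124 and 0.235 in limma), while Tfpi had 0.12 (adjusted p = 0.403) and Thbd -0.52 (adjusted p = 0.0708). For diabetes with ATG, F2r had 0.14 (adjusted p = 0.826), Plaur -0.01 and Tfpi -0.07. Likewise, with the mean of tubule markers as the covariate no member passed, and 382 of all genes did with vehicle and 105 with ATG. F2r had 0.50, Plaur 0.59 and Tfpi 0.16 with vehicle there, and 1.04, 1.05 and 0.62 with ATG. Both means differ between the groups, so that these fits cannot separate group from marker level.

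Set against the endothelial mean of the same mouse, the members parted into several patterns, which are given as a description chosen after the values were seen. The size of such a difference also reflects transcript length, and only its change between mice is read. For F2r, the log2 value minus the endothelial mean came to 0.63 ± 0.062 (SD, n = 3) under vehicle without diabetes and to 0.97 ± 0.057 (SD, n = 3) with it. In ATG-treated mice the difference was 0.69 ± 0.13 (SD, n = 3) and 0.94 ± 0.13 (SD, n = 3). The 6 diabetic mice, from 0.86 to 1.09, lay above the 6 nondiabetic mice, from 0.58 to 0.84.

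For Plaur, the difference from the endothelial mean was on average higher in diabetic mice, with -2.47 ± 0.13 (SD, n = 3) under vehicle and -2.54 ± 0.18 (SD, n = 3) under ATG. In nondiabetic mice it was -3.03 ± 0.19 (SD, n = 3) and -2.95 ± 0.32 (SD, n = 3). The groups were apart under vehicle and overlapped under ATG. For Tfpi it was nearly the same in all groups, with group means from -3.09 to -2.93. Its vehicle groups lay barely apart, at -3.18 to -3.01 and -3.00 to -2.86, and the ATG groups overlapped.

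Thbd went the other way. It stood at 0.39 ± 0.066 (SD, n = 3) in vehicle-treated nondiabetic and 0.03 ± 0.16 (SD, n = 3) in vehicle-treated diabetic mice. With ATG it was 0.26 ± 0.28 (SD, n = 3) without and -0.06 ± 0.061 (SD, n = 3) with diabetes. The vehicle groups did not overlap, whereas ATG-treated nondiabetic mouse 1 fell among the diabetic mice. F3 was lower relative to the endothelial mean in all 6 diabetic mice, from -3.22 to -3.04, than in the 6 nondiabetic mice, from -2.92 to -2.47. Vwf likewise lay from -5.29 to -4.95 in diabetic and from -4.65 to -3.60 in nondiabetic mice. For Plau the vehicle groups overlapped. Its ATG groups did not, with means of -0.01 without and -1.48 with diabetes. For Procr and Plat, diabetic and nondiabetic mice overlapped under both treatments. On this scale, a gene with a constant log2 value goes down wherever the endothelial mean goes up. How many of all genes lie apart on this scale was not counted, so these separations are not shown to be particular to the members.

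**Figure D4:**
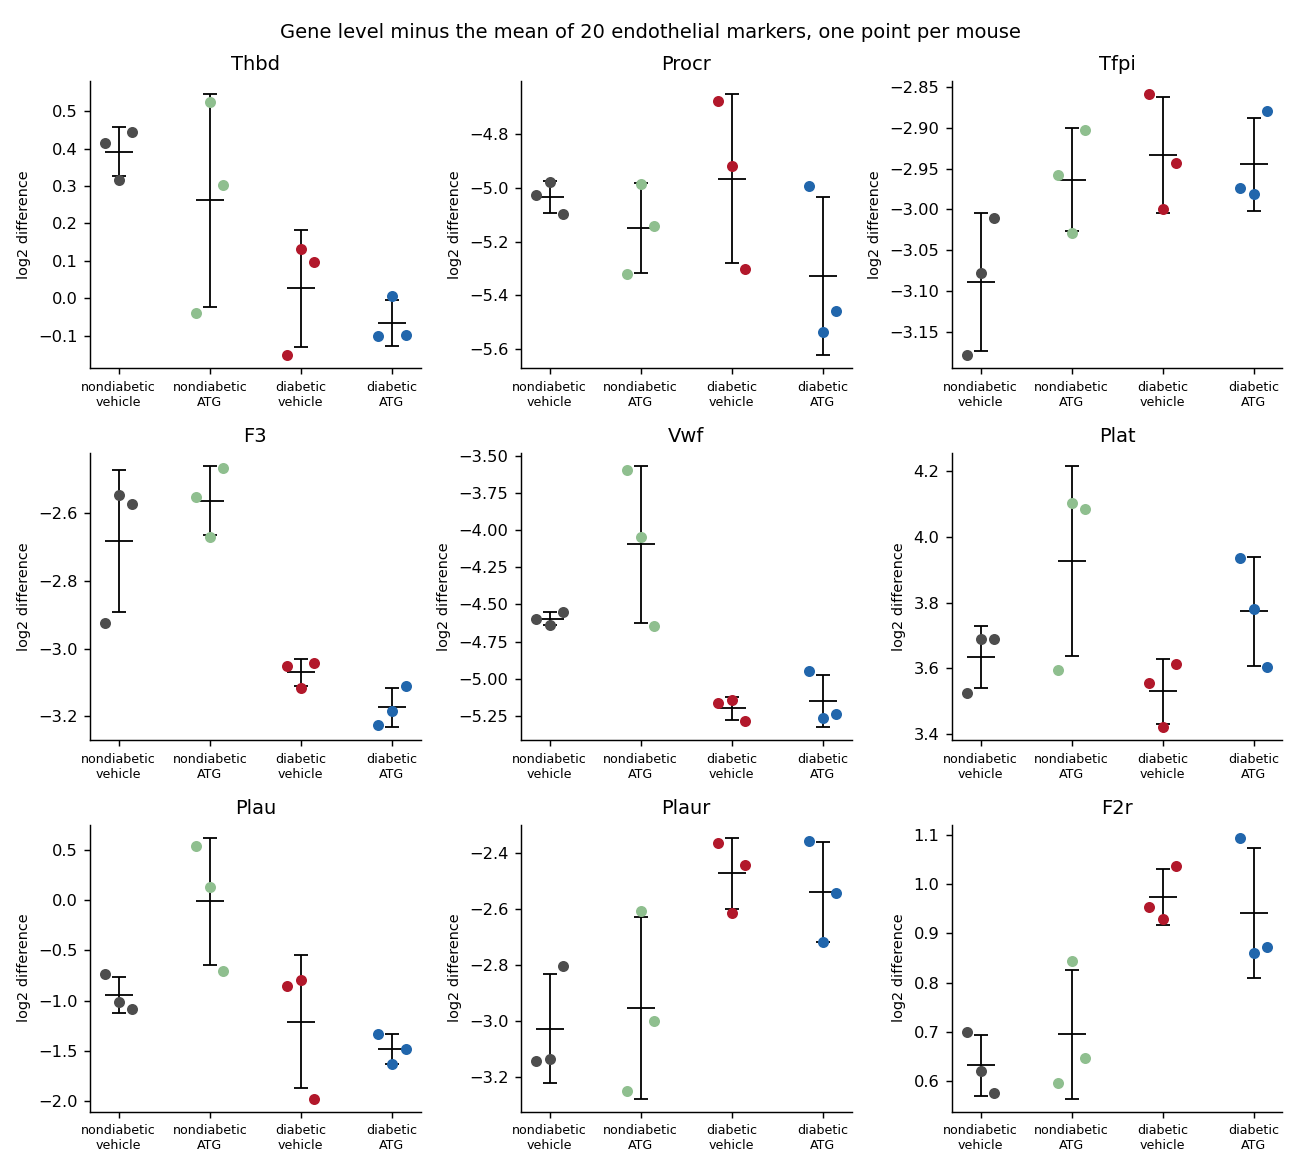
Log2 value of each gene minus the mean log2 value of 20 endothelial markers in the same mouse (vertical axis, scaled separately per gene) in the 4 groups (horizontal axis); points are mice, bars are means and whiskers 1 SD. F2r is higher in all 6 diabetic mice on this scale, and F3 and Vwf are lower.

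For each member that passed in a comparison, the 2 listed genes with the most similar course over the 12 mice were looked up. Likeness was the root mean square difference between log2 values, each gene centred on its own mean. For F2r these were Esam, an endothelial adhesion molecule that is also 1 of the 20 markers (0.064), and Cldn15, a claudin (0.089), where F2r itself varied by 0.58 about its mean. For Tfpi they were Nde1 (0.071) and Dusp3 (0.079), and for Plat they were Car10 (0.066) and Coch (0.070). For Plaur they were S1pr1, the endothelial receptor for sphingosine 1-phosphate (0.14), and Rusc2 (0.16). Procr was closest to Cyp3a44 (0.13) and to Cd93, an endothelial surface protein (0.16), and Thbd to Gnao1 (0.12) and Cdc42ep3 (0.12). With 1 mouse left out, Esam and Cyp3a44 were always the closest, and the 2 genes nearest to Thbd fell to ranks as low as 16 and 98.

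Beyond the 9, a list of 42 other genes of coagulation and fibrinolysis was examined, of which 26 were listed. The genes for prothrombin (F2), plasminogen (Plg) and factors VII, IX and X, which are made mainly in the liver, were not among them. Of the 26, 4 were higher and 6 lower with diabetes under vehicle, and 8 were higher and 12 lower under ATG. Of all genes, 10.2% were higher and 8.63% lower with vehicle, and 25.9% and 20.8% with ATG. Their median log2 fold change was -0.09 and -0.19, respectively. For ATG, 0 passed in diabetic mice, and 0 higher and 2 lower in nondiabetic mice, where 4.51% of all genes were lower.

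Of 12 coagulation factors and proteins that process them, F13a1 was higher with diabetes under vehicle and 3 were lower. F13a1, the factor XIII subunit carried by platelets and macrophages, differed by 1.00 (standard error 0.27, adjusted p = 0.0276 in limma). It lost its call without any 1 of the 3 vehicle-treated nondiabetic mice or vehicle-treated diabetic mouse 1 or 3 (adjusted p from 0.0661 to 0.0949). Under ATG, F8 was the only higher one, at 1.15 (adjusted p = 0.0224), and 7 were lower. Without ATG-treated nondiabetic mouse 1, F8 had 0.73 (adjusted p = 0.0786), and it also missed the threshold without ATG-treated diabetic mouse 1 or 3 (adjusted p = 0.0666 and 0.0641). The lower factors with the smallest p were F5, the cofactor of factor X, at -0.88 with vehicle and -1.54 with ATG, Klkb1 (plasma prekallikrein), at -1.25 and -1.55, and F13b, at -1.74 and -2.21.

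Of 5 other anticoagulants, Proc, the gene of protein C itself, was lower with diabetes under both treatments, at -1.47 (adjusted p = 0.0198 in limma) and -1.87 (adjusted p = 0.00229). Its partner protein S (Pros1) was higher under ATG at 0.98 (adjusted p = 0.00741) and did not pass under vehicle at 0.71 (adjusted p = 0.0609). Anxa5 was higher under ATG at 0.30, and Tfpi2 was lower at -0.87. Anxa5 lost its call without ATG-treated nondiabetic mouse 1 or 2 or diabetic mouse 1 or 3 (adjusted p from 0.0612 to 0.0736), and Tfpi2 without nondiabetic mouse 1 or diabetic mouse 3 (adjusted p = 0.0549 and 0.0725). These lower genes moved in the direction of the tubule markers given above. With the tubule covariate, the difference under ATG was 0.16 for F13b, 0.19 for Proc, -0.07 for Tfpi2, -0.17 for Klkb1 and -0.66 for F5. None of these passed in that fit (adjusted p from 0.475 to 0.952 in limma), where 105 of the 14096 genes did. The higher genes came closer to 0 in part, with 0.22 for Pros1 and 0.16 for F8 but 0.50 for Anxa5. With the endothelial covariate, where no gene passed in this comparison, the lower genes had -1.40 for F13b, -1.27 for Proc, -0.55 for Tfpi2, -0.20 for Klkb1 and -0.96 for F5, while Pros1 and F8 had -0.51 and -0.83.

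The regulators of fibrinolysis divided in the same way. Serpine2 (protease nexin), an inhibitor of thrombin and plasminogen activators, rose with diabetes by 0.64 under vehicle (standard error 0.14, adjusted p = 0.0138 in limma) and by 1.62 under ATG (adjusted p = 6.81e-05). S100a10, a plasminogen receptor, rose by 0.48 and 0.70. Serpinf2, the plasmin inhibitor, was lower at -2.35 and -2.80, and Cpb2, which protects fibrin from lysis, at -0.97 and -1.67. With the tubule covariate these lay at -0.80 for Serpinf2 and -1.19 for Cpb2 under ATG (adjusted p = 0.261 and 0.235), and with the endothelial covariate at -2.60 and -0.36. S100a10 had 0.74 under ATG with the tubule covariate and 0.0005 with the endothelial covariate, and neither passed (adjusted p = 0.149 and 0.999).

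Lrp1, a scavenger receptor that takes up protease and inhibitor complexes, showed another pattern. Its log2 value ranged from 10.76 to 11.13 in ATG-treated nondiabetic mice and from 11.88 to 12.19 in all others. With ATG it was lower in nondiabetic mice, at -1.10 (standard error 0.095, adjusted p = 0.00125 in limma), and the difference between the ATG effects was 1.20 (standard error 0.14, adjusted p = 0.00683). Serpine2 was likewise lower with ATG in nondiabetic mice, at -0.96 (adjusted p = 0.00825). Of the other protease-activated receptors, F2rl3 (PAR4), the second thrombin receptor, rose with diabetes by 1.06 under vehicle (adjusted p = 0.00527) and 1.38 under ATG (adjusted p = 0.000344). It missed the threshold with the tubule covariate, at 0.56 and 0.75 (adjusted p = 0.221 and 0.224), and under ATG with the endothelial covariate, at 0.44 (adjusted p = 0.614). F2rl1 (PAR2) was lower under ATG at -1.09 (adjusted p = 0.0190), and lost its call without ATG-treated nondiabetic mouse 1 or 2 or diabetic mouse 2 (adjusted p = 0.0768, 0.0618 and 0.0639).

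Of the 10 pathway genes named as called for diabetes with vehicle, Serpinf2 and F2rl3 passed with each mouse left out in turn. Of the vehicle-treated mice, leaving out nondiabetic mouse 1 or 2 left 2 higher and 1 lower, or 1 higher and 1 lower, and leaving out diabetic mouse 1 left 1 higher and 2 lower. Proc, F5, Klkb1, Cpb2 and S100a10 lost their calls in each of these 3 cases, F13b without either nondiabetic mouse, and Serpine2 without nondiabetic mouse 2 or diabetic mouse 1. F13b, F5 and Cpb2 did so without diabetic mouse 3, Klkb1 and Cpb2 without nondiabetic mouse 3, and F5 also without vehicle-treated diabetic mouse 2 or mouse 2 of either ATG group. With ATG, 11 of the 15 named calls remained with each mouse left out. Those lost were F8, Anxa5, Tfpi2 and F2rl1. Without both unnumbered mice, 3 were higher and 3 lower with vehicle, and 6 and 7 with ATG. For ATG in nondiabetic mice, 1 of the 2 lower calls was left in that setting, and Serpine2 missed the threshold at -0.72 (adjusted p = 0.0627 in limma). Both calls, Lrp1 and Serpine2, remained with each single mouse left out, and 6 were lower without ATG-treated mouse 3, as were 2467 of all genes. With only the 2 groups compared in the fit, Lrp1 and Serpine2 missed the threshold there (adjusted p = 0.0517 and 0.0824 in limma), as did F5 and F13b for diabetes with vehicle (adjusted p = 0.0625 and 0.058). Their log2 fold changes were unaltered, and for ATG in nondiabetic mice 0 of all genes passed in that fit.

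With the tubule covariate, none of the 26 passed for diabetes with vehicle, and 2 passed as higher with ATG, namely Serpine2 and Lrp1. With the endothelial covariate, F2rl3 as higher and Serpinf2 as lower passed with vehicle and none with ATG. For ATG in nondiabetic mice, Serpine2 and Lrp1 passed as lower with the tubule covariate and none passed with the endothelial covariate.

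**Figure D5:**
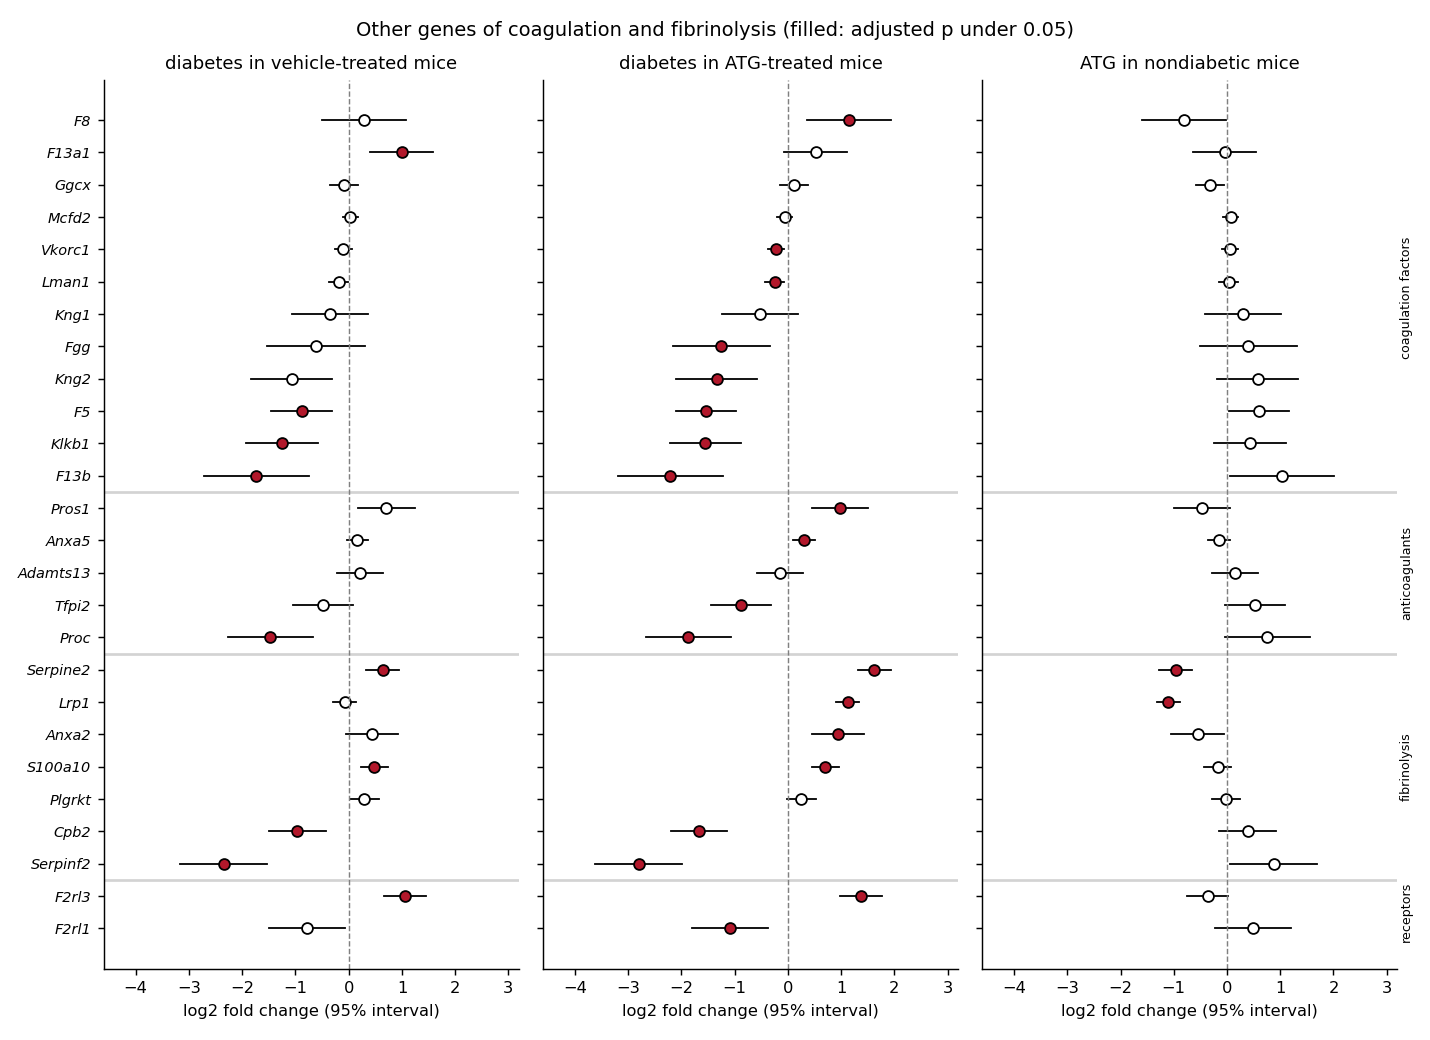
Log2 fold change (horizontal axis) with its 95% interval for the 26 other listed genes, grouped by role from top to bottom, in 3 comparisons; filled points have an adjusted p under 0.05. Serpinf2 is the lowest with diabetes, at -2.35 under vehicle and -2.80 under ATG, and the filled points for ATG in nondiabetic mice are Serpine2 and Lrp1.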

How the data were processed

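For each mouse, the authors deposited a table of log2 values, 1 per gene, on the mm10 build, and the submitters' processing notes name limma without a version. The aligner and counting software are not given in the sources used here. On the linear scale, low values (under 2000 reads) were whole multiples of 1 step per library in 83.4% to 83.9% of cases, within 0.02 reads, and the rest were fractional, so that the reads recovered are estimates. Every listed gene reached 100 in some library, a filter applied before deposit.

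All 12 mice entered 1 fit of the 4 groups in limma 3.58.1 (R 4.3.3) with a mean-variance trend. P-values were two-sided and adjusted by Benjamini-Hochberg over 14096 genes, with a threshold of 0.05. Levels per length used the deposited transcript length. The fit was tested on simulated data. Figures were drawn with matplotlib 3.10.9.

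The 9 genes, the pathway list and the marker lists were chosen with earlier results of these data known. All 9 members are named. Pathway genes were named when they passed in a comparison of 2 groups, at most 3 per role and direction by lowest p, with Plg and F2 added where listed. Results for 1 pathway gene are not reported here, and the pathway counts leave it out. For each member that passed, the 2 genes outside both lists nearest in pattern were named. Alternatives were at least 10 reads in all mice, a fit of the compared groups alone, the replicate block, each mouse left out, the unnumbered mice left out, the endothelial or tubule marker mean as a covariate, no trend, median-ratio scaling and limma-voom on recovered reads. Promoters came from RefSeq, for 5 of the 9 genes. The quantitative PCR, protein, imaging and cell culture experiments are not analysed here.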

Additional observations from a re-analysis of the deposited data

Results flagged for a closer look

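The difference between the ATG effects in diabetic and nondiabetic mice passed the test for 1 of the genes named, Lrp1, with a log2 value of 1.20 (standard error 0.14, adjusted p = 0.00683 in limma). ATG-treated nondiabetic mice had lower values than the other 9 mice in 3 of 3 animals. It ranged from 1.11 to 1.29 with each mouse left out and passed each time. With the replicate block it was 1.20 (adjusted p = 0.0503), and with the endothelial marker mean as a covariate 1.04 (adjusted p = 0.313). Mesangial markers moved along with it, with 6 of 8 lower with ATG in nondiabetic mice, and their part in the result was not tested.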

How the results depend on the processing

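Each group holds 3 mice, the marker means differ between groups, and the first part of the sample label differs with group. Members called for diabetes with vehicle (3) and with ATG (6) were within 1.5 times these counts under a minimum of 10 reads, median-ratio scaling, limma-voom, no trend, only the groups compared and the unnumbered mice left out. Calls nevertheless ended for Thbd and Plat with ATG when only the groups compared were fitted (adjusted p = 0.0626 and 0.07 in limma), and for Tfpi with vehicle without the trend (adjusted p = 0.0551) and without the unnumbered mice (adjusted p = 0.0606). With the endothelial covariate the counts were 0 and 0, and with the tubule covariate also 0 and 0, the cause of which was not tested. With the replicate block, for which same-numbered mice are different animals and deviated with a correlation from -0.26 to 0.34, the counts were 0 and 4, and Thbd for diabetes with vehicle was -0.17. Number 3 occurs only in diabetic mice and unnumbered mice only among nondiabetic ones, so that block and diabetes overlap in part. Of the pathway genes, 2 were higher and 2 lower with vehicle under the block, and 7 and 8 with ATG. Among the genes named, the calls of F13a1, F5, Klkb1, F13b, Serpine2 and Cpb2 were lost with vehicle and those of F8, Tfpi2 and F2rl1 with ATG. With each mouse left out, the counts ranged from 0 to 3 for diabetes with vehicle and from 4 to 7 with ATG. For ATG in nondiabetic mice they ranged from 0 to 5, and for the difference between the ATG effects from 0 to 2. Of all genes, 801 to 3357, 4766 to 7451, 60 to 3531 and 6 to 770 passed in these fits, in the same order. For ATG in diabetic mice the count was 0 under all of these. Of all genes, 1375 passed for diabetes with vehicle and 4422 with ATG under the block. Median-ratio scaling gave -0.0027 for Thbd with vehicle and -0.028 for Vwf with ATG. The endothelial covariate reversed the sign of 29 log2 fold changes. For diabetes with vehicle they were Thbd -0.52 and Plat -0.35. For diabetes with ATG they were Thbd -0.76, Procr -0.29, F3 -0.72, Tfpi -0.072, Plat -0.86, Plau 0.48, Plaur -0.014, Pros1 -0.51, F8 -0.83 and F2rl1 0.65. For ATG in diabetic mice they were Tfpi -0.015 and F2r -0.036. For ATG in nondiabetic mice they were Thbd 0.13, F3 0.19, Tfpi 0.18, Plat 0.72, Plau -0.25, Plaur 0.33 and F2r 0.13. For the difference between the ATG effects they were Thbd -0.24, Procr -0.32, F3 -0.30, Tfpi -0.20, Plat -0.50, Plau 0.056, Plaur -0.42 and F2r -0.16. The tubule covariate reversed 12. For diabetes with vehicle they were Thbd -0.17, Plat -0.043, Proc 0.18 and F13b 0.15. For diabetes with ATG they were F3 -0.098, Plau 0.74, Proc 0.19, F13b 0.16 and F2rl1 0.38. For ATG in diabetic mice they were F3 0.041 and Plaur 0.053. For ATG in nondiabetic mice they were Plau -0.16. With each mouse left out in turn, values near 0 changed sign, with ranges of -0.072 to 0.11 for Thbd (diabetes with vehicle), -0.14 to 0.034 for Thbd (ATG in diabetic mice), -0.11 to 0.082 for Vwf (diabetes with ATG), -0.032 to 0.16 for Vwf (ATG in diabetic mice) and -0.13 to 0.080 for F3 (diabetes with vehicle). Further ranges were -0.050 to 0.073 for Tfpi (ATG in diabetic mice), -0.059 to 0.45 for Plau (diabetes with vehicle), -0.14 to 0.059 for Plaur (ATG in diabetic mice) and -0.088 to 0.089 for F2r (ATG in diabetic mice).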
